A study of Mus musculus with 6 samples.

Results

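The circRNAs described here were those detected in the prefrontal cortex of every mouse operated under anesthesia (3 mice, the PND group) and in no untreated mouse (3 mice, the CON group). They were chosen by their deposited values alone: a value above 0 in all 3 PND libraries and a value of exactly 0 in all 3 CON libraries. Of 71481 listed circRNAs, 1093 (1.53%) met this rule and are called PND-only circRNAs below. The mirror set, detected in all 3 CON libraries and in no PND library, held 69 circRNAs. Because the PND and CON values chose the members, the difference between the groups in these circRNAs is a description, and no test of it is used as support.

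All 6 animals were male wild type C57BL/6 mice labelled as 18 months old, although the sample titles read 17M. PND mice were exposed to 1.5% isoflurane for 30 min and then had an exploratory laparotomy of 30 min, still under isoflurane. Their wound was treated with lidocaine cream and povidone iodine. CON mice had neither anesthesia nor operation, so the effects of isoflurane, of laparotomy and of the wound care cannot be told apart. According to the methods of the study, tissue was taken days after the operation, soon after the last behavioral test, the Barnes maze. It was taken under deep isoflurane in all animals. Mice of both groups had also gone through fear conditioning with foot shocks, given on the day before the operation. The prefrontal cortex was sequenced as bulk tissue, so fewer cells of a type and less RNA per cell cannot be told apart either. The files give identifiers without gene names, so neither the host genes of the circRNAs nor marker genes of the cortex could be looked up.

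CircRNAs are closed loops of RNA that form when a downstream splice donor is joined back to an upstream splice acceptor. They have no free ends, which makes them resistant to the exonuclease RNase R, and they are abundant in the brain, where many arise from exons of neuronal genes. Some carry binding sites for miRNAs. A circRNA is recognised in sequencing data by reads that cross the back-splice junction, and few such reads are obtained for a rare circRNA. A call that rests on a few junction reads can therefore be present in a library and missing from the next.

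Expression was given as SRPBM, which scales the junction reads of a circRNA by the mapped reads of the library. Each value was a whole number of reads times the worth of 1 read, and no value lay below 2 reads, so that a value of 0 stands for fewer than 2 reads. The PND libraries held 1265683 to 1320298 junction reads and the CON libraries 930306 to 1015247. They detected 39133 to 40708 circRNAs in the PND group, and 34790, 28239 and 28908 in CON replicates 1 to 3. CON replicate 1 thus stood apart from the other CON libraries in the number of circRNAs detected, and the results that rest on it are also given without it.

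PND-only circRNAs made up a small part of the circular transcriptome. They were 2.68% to 2.79% of the circRNAs detected in a PND library. In PND replicates 1 to 3 they took 4643, 4487 and 4370 junction reads, which was 0.352%, 0.345% and 0.345% of all junction reads of these libraries. The mean share was 0.347% ± 0.0037 (SD, n = 3). The rule requires each member in all 3 PND libraries, so the like shares do not measure agreement between the operated mice. The summed signal of the PND-only circRNAs was 540 ± 39.1 SRPBM (mean ± SD, n = 3).

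Most PND-only circRNAs were found at the lower limit of detection. The median member had 4, 3 and 3 reads in PND replicates 1 to 3, and in each of these libraries the 90th percentile was 7 reads. Exactly 2 reads, the smallest number reported, were found for 294, 299 and 276 members in replicates 1 to 3. In at least 1 of the PND libraries, 639 members (58.5%) rested on 2 reads. At the other end, 39, 40 and 20 members had 10 or more reads in replicates 1 to 3. The mean over the PND libraries was under 5 reads for 850 members (77.8%) and at least 10 reads for 8 members (0.732%).

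**Figure D1:**
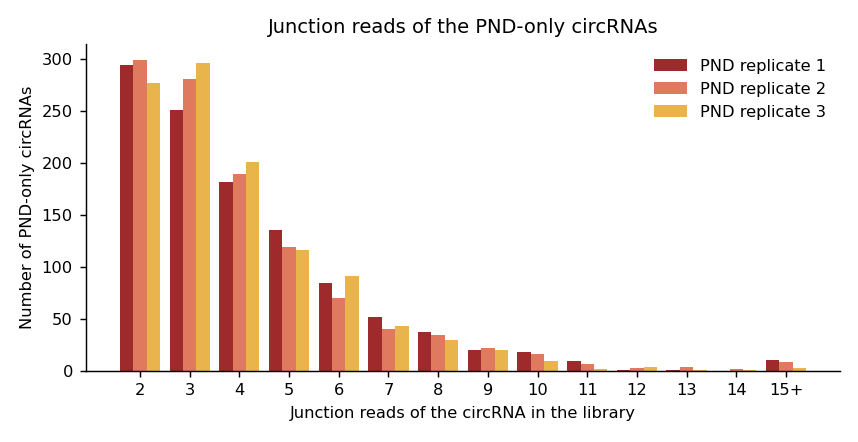
Number of PND-only circRNAs (vertical axis) by their junction reads in a library (horizontal axis, the last position holding 15 or more reads), with a bar for each PND replicate. The highest bars are at 2 and 3 reads, with 251 to 299 circRNAs per library, and the bars become lower from 3 to 5 reads in all 3 libraries.

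The level of the members was low also when set against other circRNAs of the same mice. The median of the mean PND signal was 0.447 SRPBM over the 1093 PND-only circRNAs. It was 1.4 SRPBM over the 23142 circRNAs that were detected in all 3 PND libraries and in at least 1 CON library. In reads, the medians were 3.67 and 11.7 per PND library. The 69 CON-only circRNAs had a median of 3.67 reads per CON library, so both sets lay at a like depth.

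The most abundant member was circRNA.49255. It had 8.98, 6.10 and 5.77 SRPBM in PND replicates 1 to 3, from 78, 47 and 50 reads, and 0 in CON replicates 1 to 3. Its PND values were all far above what 3 reads would give in a CON library (0.413, 0.391 and 0.380 SRPBM in CON replicates 1 to 3), and replicate 1 was the highest. The mean was 6.95 ± 1.77 SRPBM (SD, n = 3), at least 17.6-fold higher than the mean CON floor of 3 reads per library. At the PND mean, 50.5, 53.4 and 54.9 reads would be expected in CON replicates 1 to 3.

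The second member, circRNA.105570, was the most even of those with at least 10 reads on average. It had 3.23, 3.50 and 3.00 SRPBM in PND replicates 1 to 3, from 28, 27 and 26 reads, and 0 in CON replicates 1 to 3. The mean of 3.24 ± 0.25 SRPBM (SD, n = 3) was at least 8.22-fold higher than the CON floor. Its coefficient of variation (CV, the SD as a percent of the mean) was 7.75%. At this level 23.5 to 25.6 reads would be expected in each CON library, where fewer than 2 were counted.

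The files pair no identifier with a gene, so the members of ranks 3 to 10 are given by rank of their mean PND signal, without identifiers. The third had 25, 19 and 16 reads in PND replicates 1 to 3, or 2.88, 2.46 and 1.85 SRPBM, with a mean at least 6.07-fold higher than the CON floor. It was the last member with a mean of 20 or more reads, and the step to the fourth was 1.44-fold. The fourth had 17, 19 and 5 reads, or 1.96, 2.46 and 0.577 SRPBM, so that replicate 3 lay well under the others. The fifth was more even, with 16, 11 and 11 reads and a CV of 19.6%.

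The replicates of several of these members were uneven. The sixth had 19, 12 and 6 reads in PND replicates 1 to 3, and the seventh had 3, 16 and 13. In the seventh the highest library was 6.01-fold above the lowest, and its value in replicate 1, 0.346 SRPBM, lay below the mean CON floor of 0.395 SRPBM. The eighth had 6, 15 and 8 reads. The ninth had 19, 7 and 4 reads and a CV of 75.6%, the largest among members with at least 10 reads on average. The tenth had 6, 11 and 12 reads. No PND replicate was highest throughout these 10 members. The other 1083 members had mean signals from 0.240 to 1.15 SRPBM.

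**Figure D2:**
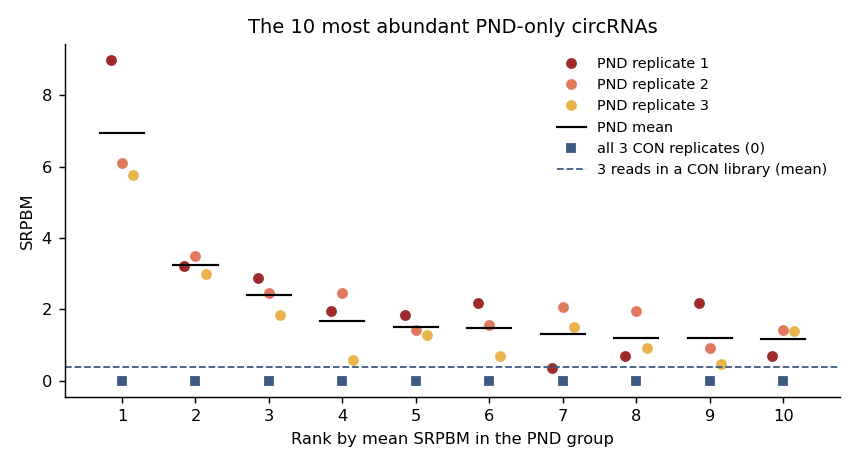
SRPBM (vertical axis) of the 10 PND-only circRNAs of highest mean PND signal, by rank (horizontal axis). Circles are the 3 PND replicates, short black lines their mean, squares the 3 CON replicates, all at 0, and the dashed line is the signal of 3 reads in a CON library, averaged over the CON group (0.395 SRPBM). The first 3 ranks lie clear of the line in every PND replicate, and the seventh has a PND replicate below it.

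These 10 circRNAs carried only a small part of the signal of the set. They held 4.67%, 4.10% and 3.46% of the PND-only signal in PND replicates 1 to 3, and the first 3 ranks held 2.82%, 2.07% and 2.11%. The signal of the PND-only set thus came from many rare circRNAs rather than from a few abundant ones.

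Whether the CON libraries were deep enough to show a member at its PND level was then worked out from the worth of 1 read in each. At the PND mean of the member, the median of the expected reads was 3.24, 3.43 and 3.53 in CON replicates 1 to 3. At least 5 reads in every CON library would be expected for 120 members, and at least 10 reads for 6 members (0.549%). For 715 members (65.4%) the PND mean lay above the CON floor of 3 reads per library. It was more than 2-fold above the floor for 64 members (5.86%) and more than 5-fold above it for 3. With the floor of CON replicates 2 and 3 alone, these numbers were 753, 73 and 3. For the other 378 members the PND mean did not exceed the floor of all 3 CON libraries, so no fold change is given. This floor of 3 reads was a chosen limit, above the 2 reads that are the smallest number reported. At least 2 reads in every CON library would be expected for 1062 members (97.2%) at their PND mean. The others are the 31 members with 2 reads in each PND library, so this number follows from the rule. The rule needs at least 2 reads in every PND library and thereby raises the PND mean. Counted reads also scatter around the expected number, so a member at these levels can still fall below 2 reads in a library. A difference in the 378 members was thus close to the limit of detection, and was not tested.

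The share of PND-only circRNAs depended steeply on abundance. Of the circRNAs detected in all 3 PND libraries with a mean of 2 to under 3 reads, 30.3% (214 of 707) were PND-only. The share was 16.8% (636 of 3778) at 3 to under 5 reads and 3.44% (235 of 6832) at 5 to under 10 reads. Above that it was close to 0, with 5 of 5046 circRNAs at 10 to under 20 reads and 3 of 7872 at 20 reads and over. Detection in the CON group rose in the same order. The share found in all 3 CON libraries was 7.50%, 18.9%, 46.6%, 84.1% and 98.8% in these 5 classes. Without CON replicate 1 in the rule, the share that met it was 50.9%, 35.5%, 14.0%, 2.08% and 0.152%, so it was higher in each class and fell in the same order.

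The CON-only circRNAs followed the same course at a lower level. They were 4.69% (13 of 277), 2.32% (47 of 2025) and 0.184% (9 of 4887) of the circRNAs found in all 3 CON libraries in the 3 lowest classes of mean CON reads, and none were found among 10171 circRNAs with a mean of 10 or more reads. In every class with members, the PND-only share was above the CON-only share. The PND libraries also held more junction reads than the CON libraries. Their total signal, which is scaled by mapped reads, was higher too, at 146077 to 168525 SRPBM against 121154 to 139828. The signal of 3 reads was 0.346 to 0.389 SRPBM in PND and 0.380 to 0.413 in CON libraries, so the numbers of mapped reads overlapped between the groups. The cause of the higher junction reads was not tested. If every library were reduced at random to 930306 junction reads, 629 PND-only and 125 CON-only circRNAs would be expected, as calculated from the binomial distribution, in place of 1093 and 69. Without CON replicate 1 in the rule, 1762 would be expected in place of 2777. This matches the junction reads and not the mapped reads or the number of circRNAs detected.

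**Figure D3:**
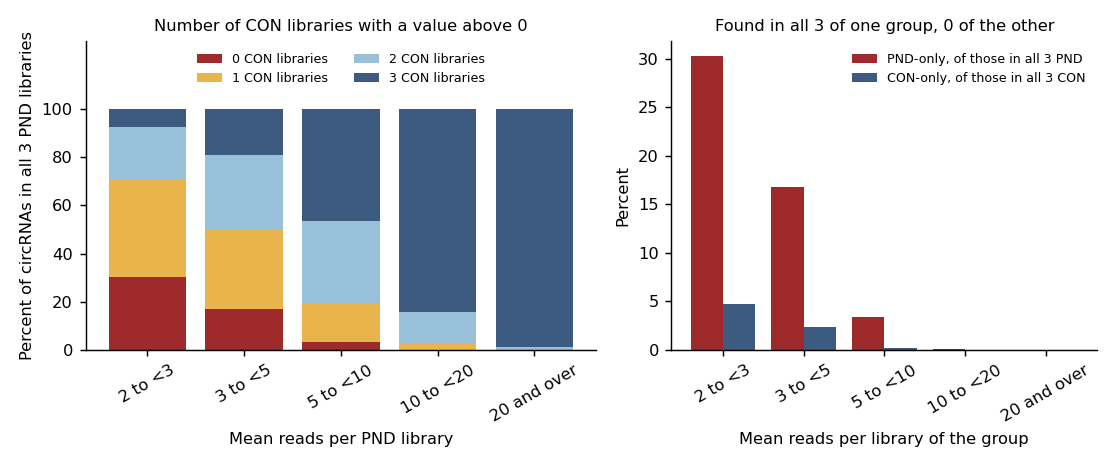
Left, circRNAs detected in all 3 PND libraries, by mean reads per PND library (horizontal axis), as the percent (vertical axis) found in 0, 1, 2 or 3 CON libraries. Right, the percent that was PND-only (of circRNAs in all 3 PND libraries) or CON-only (of circRNAs in all 3 CON libraries) by mean reads per library of the same group. The PND-only share falls from 30.3% to 0.0381%, and the CON-only share from 4.69% to 0.

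The values just inside and just outside the rule were close. Just inside, 31 members had 2 reads in each of the 3 PND libraries. Just outside, 1684 circRNAs were detected in all 3 PND libraries and in CON replicate 1 alone, 516 in all 3 PND libraries and CON replicate 2 alone, and 557 in all 3 and CON replicate 3 alone. In these the single CON library held a median of 4 reads in each case, and exactly 2 reads for 345, 130 and 117 circRNAs. Just outside on the PND side, 1314, 1182 and 1392 circRNAs were absent from the CON group and from PND replicate 1, 2 or 3 alone.

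CON replicate 1 had the largest weight on the membership. Without it, 2777 circRNAs met the rule, of which 1093 were 0 in CON replicate 1 and 1684 (60.6%) were not. Without CON replicate 2 the number was 1609 and without CON replicate 3 it was 1650. Without PND replicates 1, 2 or 3 it was 2407, 2275 and 2485, since a rule over fewer libraries is easier to meet. The 1684 circRNAs that CON replicate 1 removed had a median of 4.67 reads per PND library, and 109 of them had a mean of at least 10 reads, against 8 of the members. The 2777 circRNAs held 1.07% of the junction reads of the PND libraries, against 0.347% for the members. The highest of the 1684 had a mean of 7.88 SRPBM in the PND group, above the first member.

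All libraries took part in the choice of the members, so none was left to show how far membership carries over to another mouse. A looser rule was therefore read in libraries it did not use, with 1 PND and 1 CON library left out in turn. CircRNAs were selected that had a value above 0 in the other 2 PND libraries and 0 in the other 2 CON libraries. Detection was then read in the libraries left out. This gave 9 sets of 3084 to 4902 circRNAs. Each set holds all PND-only circRNAs. By their rule these are present in the PND library left out and absent from the CON library left out. As the sets overlap and share libraries, the percentages are given as a description without a test. Beside each stands the detection of the other circRNAs found in exactly 2 of the same 4 selecting libraries, in any pair but the 2 PND libraries, 5395 to 6760 per set. This reference, chosen after the data were seen, shows how often a circRNA held by another pair of libraries was detected in the library left out. It holds no PND-only circRNA, so differences from it describe the looser rule and are no support for the members. A wider reference, all circRNAs found in any 2 of the 4 (9758 to 10297 per set), holds the selected circRNAs as 31.3% to 47.6% of its members, which makes differences from it smaller.

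In the PND libraries left out, the selected circRNAs were detected in 50.1% to 58.3% (replicate 1), 52.2% to 61.8% (replicate 2) and 48.8% to 56.7% (replicate 3) of cases. The reference values were 47.4% to 48.6%, 49.1% to 49.8% and 44.7% to 46.5%. The mean difference was 5.10, 6.19 and 5.93 percentage points. The selected circRNAs were higher in all 9 sets, but these overlap and are not separate observations. This difference was not tested. The difference was 9.73, 12.1 and 10.1 points where CON replicate 1 was the other library left out. It was as low as 2.62, 3.09 and 3.63 points with CON replicate 2 or 3. Against the wider reference the mean difference was 2.97, 3.70 and 3.46 points. A circRNA picked from 2 operated mice was thus missing from the third operated mouse in about as many cases as it was present.

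In the CON libraries left out, the outcome differed between libraries. CON replicates 2 and 3 held 24.7% to 26.2% and 26.5% to 27.1% of the selected circRNAs, against 25.1% to 25.8% and 25.8% to 26.4% for the reference. The differences were -0.75 to 1.17 and 0.19 to 0.72 percentage points, so that the selected circRNAs were found in these libraries about as often as the reference. CON replicate 1 held 49.3% to 49.4% of the selected circRNAs, against 38.1% to 39.0% for the reference, a mean difference of 10.7 points (5.72 against the wider reference). CON replicate 1 thus held a larger share of the circRNAs selected without it than CON replicates 2 and 3 held of theirs. The circRNAs are not the same, since those read in CON replicate 2 or 3 had to be 0 in CON replicate 1. In the 3 sets with CON replicate 1 left out, the PND libraries left out held 58.3%, 61.8% and 56.7% of the selected circRNAs, more than CON replicate 1.

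The gap between a PND and a CON library left out was 7.34 to 25.9 percentage points in the selected circRNAs, with a mean of 19.5, and 8.38 to 24.0 points in the reference, with a mean of 17.5. With CON replicate 1 left out, the gap averaged 9.59 points in the selected circRNAs and 9.64 in the reference. With CON replicate 2 or 3 left out, it averaged 24.5 points in the selected circRNAs and 21.4 in the reference. It was larger in the selected circRNAs by 1.92 to 4.62 points in these 6 sets, which overlap and are not separate observations. Both sets thus showed the gap between PND and CON libraries. With the opposite selection, circRNAs found in 2 CON and in neither of 2 PND libraries (449 to 687 per set), 39.3% to 48.4% were detected in the PND library left out and 22.4% to 36.0% in the CON library left out. These circRNAs, too, were found more often in the PND library than in the CON library on average, at 43.1% against 28.4%.

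**Figure D4:**
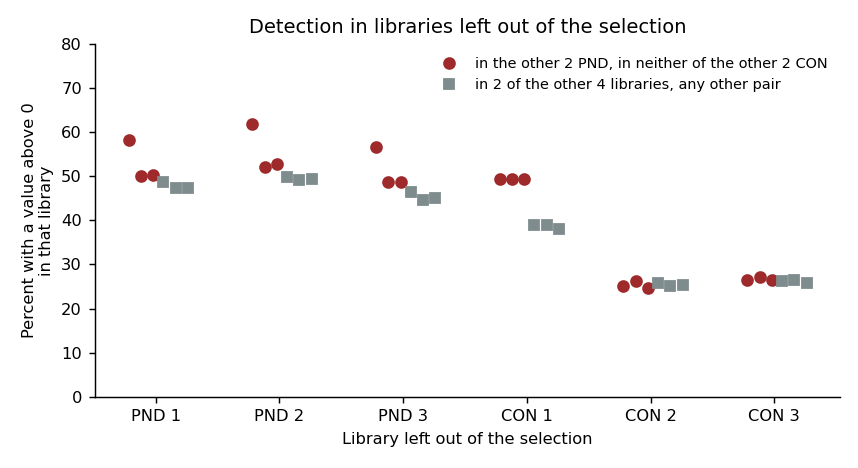
Percent of circRNAs with a value above 0 (vertical axis) in each library when it was left out of the selection (horizontal axis). Circles are circRNAs found in the other 2 PND libraries and in neither of the other 2 CON libraries, squares the other circRNAs found in exactly 2 of the 4 selecting libraries, with 3 sets per library. Circles lie a mean of 5.10 to 6.19 points above squares in the PND libraries, 10.7 points above in CON replicate 1, and within 1.17 points in CON replicates 2 and 3.

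Among selected circRNAs with a mean of at least 5 reads in the 2 selecting PND libraries (649 to 1531 per set), detection was higher throughout. It was 67.6% to 82.3% in the PND libraries left out, where the difference from the reference with the same limit was 2.00 to 15.6 points. It was 67.8% to 71.0% in CON replicate 1, again above its reference, by 13.3 to 16.9 points. In CON replicate 2 it was 34.4% to 37.9%, with a difference from the reference of -4.61 to -2.21 points. In CON replicate 3 it was 37.4% to 42.0%, with a difference of -1.71 to 2.95 points.

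The spread of the members among the operated mice was then described. The median CV over the 3 PND libraries was 37.8% for PND-only circRNAs and 28.2% for the circRNAs found in all 3 PND libraries and in at least 1 CON library. The highest PND library exceeded the lowest more than 2-fold in 576 members (52.7%) and more than 5-fold in 32 (2.93%). Both sets are conditioned on detection in all 3 PND libraries, which narrows the spread of circRNAs near 2 reads.

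Classes of mean reads per PND library were therefore compared. The median CV was 23.5% against 25.4% at 2 to under 3 reads, and 39.8% against 39.7% at 3 to under 5 reads, so that the medians of the rarest members lay close to those of other rare circRNAs. It was 47.3% against 39.9% at 5 to under 10 reads, and 58.6% against 30.9% for the 5 members with 10 to under 20 reads. For the 3 members with 20 or more reads it was 21.7% against 17.3%. The larger CV in the middle classes thus rested on 235 and on 5 circRNAs. Most of these lay toward the lower end of their class, and the CV of the others fell with abundance from 5 reads upward. A difference in abundance within a class was thus not separated from a difference in spread. Without CON replicate 1 in the rule, the medians in the classes from 5 reads upward were 42.3% against 39.8%, 35.1% against 30.8%, and 37.9% against 17.3%, the last from 12 circRNAs.

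**Figure D5:**
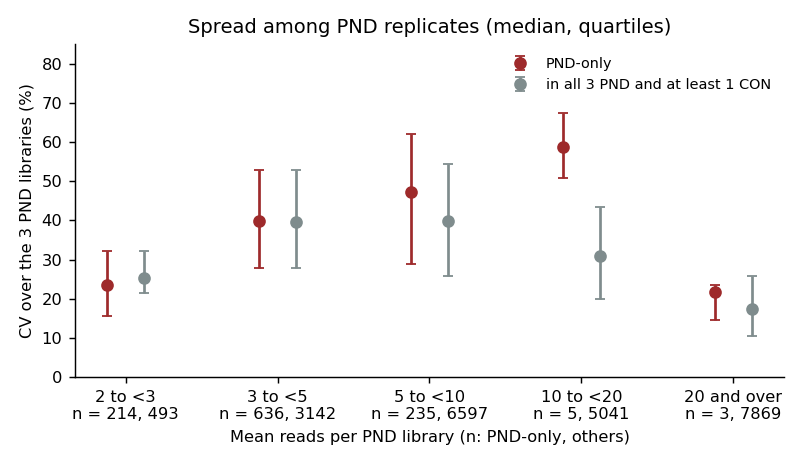
CV of SRPBM over the 3 PND libraries (vertical axis) by mean reads per PND library (horizontal axis), as the median (circle) with the lower and upper quartile (bars), for PND-only circRNAs and for circRNAs found in all 3 PND libraries and at least 1 CON library. Below 5 reads the medians differ by less than 2 points, and the PND-only median is higher at 5 to under 10 reads and, from 5 circRNAs, at 10 to under 20 reads.

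The order of abundance among the members was compared between the operated mice. Across the 1093 members, Pearson's r of log2 SRPBM was 0.172 between PND replicates 1 and 2, 0.189 between replicates 1 and 3, and 0.214 between replicates 2 and 3. Across the 23142 other circRNAs found in all 3 PND libraries it was 0.911 to 0.920, over a far wider range of levels. Among circRNAs with a mean under 5 reads the values were close to 0 or below in both sets, from -0.089 to -0.013 over 850 members and from -0.15 to -0.12 over 3635 others. A limit on the mean of the 3 libraries itself lowers r, so these values cannot show whether the order was shared between mice. CircRNAs are not independent replicates, and most members differ by a few reads only. Which library was highest depended on the scale: PND replicate 2 for 459 members in SRPBM, PND replicate 3 for 436 members with every library set to the same total signal. In plain reads, replicates 1, 2 and 3 were highest for 314, 283 and 268 members, and 228 were tied.

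The numbers in the identifiers were examined because the study merged circRNAs by position before numbering them, although it is not stated whether the numbers follow position. Members were spread over the whole range of numbers from 2 to 134782, with 90 to 120 members in each of 10 equal sections of the listed circRNAs. A member was followed by another member in the numbering in 19 cases (1.74%), against 1.53% for any circRNA. PND-only circRNAs thus showed no marked crowding in the numbering.

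In the comparison of all circRNAs between the PND and CON groups, limma was applied to the 33140 circRNAs detected in at least 3 libraries. The cut-offs of the study, a fold change above 2 together with an unadjusted p below 0.05, were applied to this fit. The methods of the study name edgeR for the p-value and also name limma, so its own counts are not comparable with these. By this screening rule, 8.93% of all tested circRNAs were called as higher in the PND group. Of the 1093 members 1062 were among them, and the 31 that were not are those with 2 reads in each PND library. With a Benjamini-Hochberg adjusted p under 0.05, 0.00302% of all tested circRNAs were called as higher, which was 1 circRNA, and it was the first member, circRNA.49255 (adjusted p of 0.00115). This call was lost with a pseudocount of 0.0641 (adjusted p of 0.0622) and with limma voom (adjusted p of 0.204), and over all settings that tested it the adjusted p ranged from 9.58e-18 to 0.204. The number of adjusted calls over all circRNAs rested on the libraries used, with 261, 78 and 355 calls without PND replicates 1, 2 and 3, 745 without CON replicate 1, 2 without CON replicate 2 and 1 without CON replicate 3. As this contrast chose the members, nothing is read from these counts and p-values about the PND-only set or circRNA.49255.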

How the data were processed

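RNA from the prefrontal cortex of 6 mice was depleted of rRNA, treated with RNase R and sequenced on an Illumina HiSeq platform. According to their methods, the authors used Seqtk to filter reads, BWA-MEM for mapping and CIRI for detection, and gave new numbers to circRNAs matched by position between samples. Tool versions and the genome build are not given in the sources used here, and the submitters' processing notes list Bowtie 0.12.2 and the builds mm8 and mm9 without a role. The deposited signal is SRPBM, in a file per sample. The files pair identifiers with no gene, position, sequence or circRNA type, so the reference annotation was not used.

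Reads were recovered by dividing each value by the worth of 1 read in its library. All values (100%) were whole numbers of reads within 0.0001, and the smallest was 2 reads. Reads carry no molecular identifiers, so floors cover counting error only. The labels state no separate batches. Groups came from the treatment label and replicate numbers from the titles. The replicates are different mice. The limma p-values set the group difference against the spread between these 3 mice per group, adjusted with the spread of all tested circRNAs. For a PND-only circRNA the CON values are all 0 and show no spread between the CON mice.

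The members, the lists and the tests were chosen with earlier results of these data known. Members by rank of mean PND signal were described for ranks 1 to 10, with 2 identifiers printed, together with the members of largest and smallest CV among those with at least 10 reads on average. The whole-table comparison was fitted on log2(SRPBM + 0.256) in limma 3.58.1 (R 4.3.3), with group as the model term, a trended variance prior and Benjamini-Hochberg adjustment. The pseudocount is the median of the smallest positive values of the libraries. The limma code was tested on simulated reads. The simulation set no circRNA to be absent from a whole group, so it does not cover the pattern of the PND-only circRNAs. Other calculations used Python 3.11.15 with pandas 2.3.3 and scipy 1.17.1. Alternatives were other read limits, equal junction reads, other filters, pseudocounts and scalings, limma voom, a block for the replicate number, and the removal of each library in turn. The reference without the selected circRNAs and the values by abundance without CON replicate 1 were chosen after seeing the data.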

Additional observations from a re-analysis of the deposited data

How the results depend on the processing

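The number of PND-only circRNAs was 454, 64 and 4 when at least 3, 5 or 10 reads were required in each PND library, 1685 when 1 CON library could hold 2 reads, 629 expected at an equal number of junction reads, and 1609 to 2777 with a library left out, the highest without CON replicate 1. Their mean share of PND junction reads was 0.0425% with at least 5 reads, 0.550% with 2 reads allowed in 1 CON library, and 0.535% to 1.07% with a library left out, the highest again without CON replicate 1. Fewer libraries in the rule make it easier to meet. Detection in a PND library left out averaged 53.3%, 73.9% for circRNAs with at least 5 reads, 41.2% with 3 reads needed for detection, and 29.9% to 67.1% with a further library removed. In a CON library left out it averaged 33.8%, 48.8% for circRNAs with at least 5 reads, 25.5% with 3 reads needed for detection, and 18.6% to 46.5% with a further library removed. The 33.8% combined 49.4% in CON replicate 1 with 25.3% and 26.7% in CON replicates 2 and 3. The mean difference from the wider reference was 3.38 points in a PND and 2.02 points in a CON library left out, and 5.74 and 3.72 points from the reference without the selected circRNAs. The 2.02 points combined 5.72 in CON replicate 1 with -0.029 and 0.354 in CON replicates 2 and 3. The median CV was 37.8%, 47.3% for members with at least 5 reads, and 35.3% at the same total signal.

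The count of circRNAs with a limma adjusted p under 0.05 was 453 with no filter, 2 with the pseudocount raised to 1.03, 0 when it was lowered to 0.0641 (4095 circRNAs had an unadjusted p below 0.05), 0 with limma voom (3395 had an unadjusted p below 0.05), and 1 to 745 with a library left out, the highest without CON replicate 1, with 78 to 355 without a PND library. A replicate block in the fit gave 162, and same-numbered libraries did not deviate together (correlations of -0.015, -0.035 and 0.047). Calls under the screening rule numbered 1264 to 5807 with a library left out, lowest without PND replicate 2 and highest without CON replicate 1, and 2978 with the block. Of the PND-only circRNAs, 499 passed the screening rule with no filter, 951 with the block, and 831 to 1062 with a CON library left out, where 3.96%, 8.51% and 7.72% to 18.5% of all tested circRNAs were called as higher in the PND group. Without a PND library no member was tested, since 2 values above 0 do not pass the filter. The cause of these changes was not tested. A count model had been planned on the recovered reads and was left out. Most members rested on few reads, with a median of 3.67 reads per PND library.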
